A study of Homo sapiens with 12 samples.

Results

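The mitotic kinesins are motor proteins that move along, cross-link or take apart microtubules while a cell divides. The 10 genes described here are KIF15, KIF11, KIF23, KIF20A, KIF20B, KIF4A, KIF18A, KIF2C, KIF14 and KIFC1, taken by gene name from a table of 57169 genes. All 10 were in the table, and all 10 passed the low-count filter that left 16519 genes for the fit. The family was chosen by its known role with the result of the knock-down already known, in which KIF15 had been called lower. Differences between the groups are therefore given as a description of these libraries, with the adjusted p-values of the all-gene fit beside them, and nothing is supported with them.

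The RNA came from xenograft tumours of SK-ES1, a line established from a Ewing sarcoma, grown in a host that the labels do not name. There were 6 libraries from tumours with knock-down of RING1B, and they were set against 6 from tumours labelled wild-type, here called control. Every tumour shares the cell line and the EWSR1-FLI1 fusion that it carries, and the labels give neither the silencing construct, nor a construct in the controls, nor the host's age. Libraries carry title numbers, 4 of which stand on 2 libraries each. The labels do not say whether these come from separate animals, so the p-values measure only the spread between these samples.

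Kinesins bind microtubules through a conserved motor domain that hydrolyses ATP. In mitosis some members slide spindle microtubules apart, others shorten them or position chromosomes on them, and a further set organises the central spindle and the cleavage of the cell. Their genes are switched on late in the cell cycle, through promoters that carry CCAAT boxes, bound by NF-Y, and cell-cycle homology regions (CHR), bound by the MuvB complexes. RING1B, encoded by RNF2, is the catalytic ubiquitin ligase of Polycomb repressive complex 1.

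Total counts ranged from 23859184 to 26345508 in knock-down and from 24574794 to 26678325 in control libraries. RNF2, the target, was at 17.7 ± 4.55 CPM (counts of a gene over the library total in units of 1e+06, after TMM scaling; SD, n = 6) in knock-down and 47.6 ± 8.42 CPM in control, without overlap. Of 13 Ewing sarcoma markers 12 passed the filter, with summed levels of 2620 to 3042 CPM in knock-down and 2562 to 2790 CPM in control. Of the 12, 10 had a log2 fold change above 0 and none was called, while 47.6% of all tested genes were below 0 and 0.297% were called. NKX2-2 was at 0.37, BCL11B at 0.46, PPP1R1A at 0.31 and IGF1 at 0.24 (log2 fold changes, edgeR adjusted p from 0.309 to 0.469). CD99, also on that list, was listed at 0 in every library; its identical X and Y copies lie in the pseudoautosomal region, and the part of this in the value was not tested. Macrophage and leukocyte markers summed to 8.25 to 34.1 CPM in knock-down and 7.33 to 26.6 CPM in control, with CD3E at 0 throughout. Endothelial markers summed to 66.0 to 102 CPM in knock-down and 66.4 to 111 CPM in control. Most of this was EGFL7, with means of 56.2 CPM in knock-down and 61.8 CPM in control. Of 10 endothelial markers 6 passed the filter, and PECAM1 and VWF had means of at most 0.252 CPM in either group. Fibroblast and pericyte markers summed to 422 to 1606 CPM in knock-down and 573 to 1584 CPM in control. In neither list was a gene at 0 throughout. None of the tested endothelial (6), leukocyte (5) and fibroblast (9) markers was called. The smallest edgeR adjusted p was that of DCN, the matrix proteoglycan decorin, at a log2 fold change of 0.71 (0.0844). DCN does not speak for its list. Of the 9 tested fibroblast and pericyte markers 5 were above 0 and 4 below, among them COL3A1 at −0.47, with a median of 0.07. The list sum was 763 ± 428 CPM in knock-down and 933 ± 413 CPM in control (SD, n = 6 each). How far host RNA or the fraction of dividing cells moved the kinesins was not tested, and in bulk tumours fewer cells of a type cannot be told apart from less RNA per cell.

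The promoters of the members shared short motifs of late cell-cycle genes, which the choice of the family did not use as letters. RefSeq promoters (GRCh38.p14, from 250 bases before to 50 after the annotated start) were found for all 10. CCAAT, searched on both strands, occurred in 8 of 10 members, all but KIF15 and KIF2C, and in 34.6% of 35116 promoters. A CHR, searched as TTTGAA on both strands or as TTTAAA, which is its own reverse complement, occurred in 10 of 10 members and in 24.0% of promoters. Its place differed between members. In KIF20B (25 to 36) and KIFC1 (5 to 10) it lay only after the start, and in KIF2C it spanned the start (−3 to 3). KIF14 had it from 2 to 7 and from −198 to −193. TTTGAA alone was in 8 of 10 and 15.2%, and TTTAAA in 4 of 10 and 12.2%. E2F-type letters were searched on both strands as TTCCCGC, as well as TTGGCGC, along with TTCGCGC, and finally as TTGCCGC. At least 1 of these forms was in 3 of 10, namely KIF15, KIF18A and KIFC1, and in 13.0% of promoters. TTGGCGC overlaps its own reverse complement in KIF18A. A match describes letters in this window and is not a measured binding site.

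The 5 promoters shown belong to the 3 members with the lowest fitted change, KIF15, KIF4A and KIF23, and to KIF11 and KIF20A. The groups overlapped in KIF23, KIF11 and KIF20A, as they did in every member not shown. Each run holds the 150 bases before the RefSeq start, 5′ to 3′ on the strand of the gene. These RefSeq starts differ from those of GENCODE release 29, the annotation of the gene spans given below. The KIF20A run lies wholly inside its GENCODE gene, which starts at 138178719. Matches to the motifs above are in capitals. Those on the opposite strand are seen as ATTGG for CCAAT, as TTCAAA for a CHR and as GCGCCAA for the E2F-type letters. The runs lie at chr3:44761644-44761793, chrX:70289954-70290103, chr15:69414199-69414348, chr10:92592980-92593129 and chr5:138178962-138179111, all on the plus strand.
KIF15: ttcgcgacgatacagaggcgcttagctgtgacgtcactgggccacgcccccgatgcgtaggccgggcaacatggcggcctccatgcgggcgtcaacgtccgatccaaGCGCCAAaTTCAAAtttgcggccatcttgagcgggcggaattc
KIF4A: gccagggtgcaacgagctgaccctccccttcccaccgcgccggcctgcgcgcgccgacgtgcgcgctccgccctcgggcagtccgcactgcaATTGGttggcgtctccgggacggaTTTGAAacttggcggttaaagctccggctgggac
KIF23: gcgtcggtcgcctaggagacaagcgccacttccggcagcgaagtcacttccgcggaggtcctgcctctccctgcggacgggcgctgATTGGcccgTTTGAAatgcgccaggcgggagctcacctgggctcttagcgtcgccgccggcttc
KIF11: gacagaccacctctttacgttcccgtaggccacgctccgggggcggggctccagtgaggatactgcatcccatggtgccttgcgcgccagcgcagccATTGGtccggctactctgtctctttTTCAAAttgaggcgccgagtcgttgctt
KIF20A: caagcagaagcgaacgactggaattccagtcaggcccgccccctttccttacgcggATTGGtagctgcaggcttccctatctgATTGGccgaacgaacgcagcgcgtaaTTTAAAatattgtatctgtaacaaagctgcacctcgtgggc

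In KIF15 the E2F-type letters, from −43 to −37 before the start, stood a single base from the CHR, from −35 to −30, and no CCAAT was in the window. In KIF4A a CCAAT on the opposite strand from −58 to −54 preceded a CHR from −34 to −29, and in KIF11 the corresponding positions were −53 to −49 and −28 to −23. KIF23 held CCAAT letters from −64 to −60, TTTGAA from −55 to −50 and, outside the stretch shown, TTTAAA from −211 to −206. KIF20A held CCAAT letters beginning at −94 and −67 and TTTAAA from −41 to −36.

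KIF15 was the member furthest from its control level. KIF15 is a plus-end motor that cross-links spindle microtubules and can keep a spindle bipolar when KIF11 is inhibited. It spans 44761717 to 44873376 on the plus strand of chromosome 3 in hg38, and its 35-exon principal transcript encodes 1388 residues. Its lowest, median and highest levels were 51.7, 84.7 and 109 CPM in knock-down libraries, against 117, 152 and 163 CPM in control libraries. All 6 knock-down libraries were below every control library, with knock-down 4 the lowest and knock-down 2 the highest of its group. The means were 84.1 ± 18.9 CPM in knock-down and 148 ± 16.1 CPM in control (SD, n = 6 each). On the log2 scale the fitted fold change came to −0.82 with an SE of 0.147 (adjusted p = 0.0283 by edgeR), which is 56.8% of the control level.

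The KIF15 call was sensitive to single libraries while its size was not. Leaving out knock-down 1 ended it, at an adjusted p of 0.0729 by edgeR. Leaving out control 1, control 2, control 3 or control 4 did so too, at an adjusted p of 0.0749, 0.0708, 0.0843 and 0.0759 by edgeR. It stood in the other 7 leave-outs, with the log2 fold change between −0.91 and −0.71 over all 12. Summing the libraries that share a title number gave −0.80 (edgeR adjusted p = 0.0564).

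KIF4A, a chromokinesin that carries chromosome arms away from the poles and, with the cytokinesis regulator encoded by PRC1, sets the length of the central spindle, was the other member without overlap. Its lowest, median and highest levels were 68.8, 97.3 and 112 CPM in knock-down, against 112, 129 and 154 CPM in control. The highest knock-down library, knock-down 6 at 111.99 CPM, lay just below the lowest control library, control 6 at 112.25 CPM. The log2 fold change was −0.49 (SE 0.123), and edgeR did not call it (adjusted p = 0.122). The range of its edgeR adjusted p over the 12 leave-outs was 0.0673 to 0.242. DESeq2 called KIF4A (adjusted p = 0.0125), as did limma-voom with quality weights (adjusted p = 0.021). Over all genes, however, these fits called 351 and 500, against 49 by edgeR. KIF4A spans 70290090 to 70420832 on the plus strand of chromosome X. KIF4B, a near-identical copy of KIF4A, had at most 12 counts in any library. The handling of multiply aligned reads is not given, so whether KIF4A lost reads shared with it cannot be told.

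KIF23 stood next in order. It is the motor subunit of centralspindlin, which bundles microtubules at the cleavage plane. Its lowest, median and highest levels were 92.1, 111 and 119 CPM in knock-down, against 119, 135 and 140.2 CPM in control. Of the 6 knock-down libraries 5 were below every control library, and knock-down 1 was level with control 1, the lowest control. Its log2 fold change came to −0.27 with an SE of 0.0886 (adjusted p = 0.22 by edgeR), with a call by DESeq2 (adjusted p = 0.0436). KIF23 had the smallest spread between libraries of all members, with a coefficient of variation of 8.87% in knock-down and 6.82% in control.

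KIF11, the plus-end motor also known as Eg5 that pushes the poles apart, had lowest, median and highest levels of 132, 157 and 192 CPM in knock-down, against 119, 155 and 189 CPM in control. Its groups overlapped over most of their range, and the log2 fold change of 0.05 (SE 0.119) turned to −0.01 without control 1 or without knock-down 2. KIFC1, a minus-end motor that clusters spindle poles, was at 76.5, 112 and 131 CPM in knock-down, against 76.5, 122 and 140.0 CPM in control. The lowest library of each group was knock-down 5 and control 6, and the log2 fold change was −0.10 (SE 0.157).

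KIF2C, which depolymerises microtubules and corrects faulty attachments at centromeres, had lowest, median and highest levels of 132, 181 and 199 CPM in knock-down, against 141, 193 and 218 CPM in control (log2 fold change −0.10, SE 0.124). As with KIFC1, knock-down 5 and control 6 were lowest in their groups. KIF18A, which dampens chromosome movement at the metaphase plate, was at 31.2, 46.5 and 57.2 CPM in knock-down, against 32.3, 37.9 and 41.9 CPM in control. It had the largest positive difference of the 10 (log2 fold change 0.29, SE 0.138, edgeR adjusted p = 0.408), with 4 knock-down libraries above every control library and knock-down 6 below every one.

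The remaining motors act late in mitosis. KIF20A, which brings the chromosomal passenger complex to the central spindle, had lowest, median and highest levels of 115, 158 and 191 CPM in knock-down, against 134, 162 and 212 CPM in control (log2 fold change −0.09, SE 0.137). KIF20B, a motor of the last stage of cytokinesis, was at 54.2, 78.7 and 90.1 CPM in knock-down, against 54.2, 63.1 and 85.4 CPM in control (log2 fold change 0.18, SE 0.141). KIF14, which recruits citron kinase for cytokinesis, was at 41.3, 54.6 and 62.6 CPM in knock-down, against 50.2, 53.1 and 69.7 CPM in control (log2 fold change −0.07, SE 0.129). All 3 overlapped between the groups. The edgeR adjusted p of KIF11, KIFC1, KIF2C, KIF20A, KIF20B and KIF14 ranged from 0.627 to 0.888. That these differences were not called does not show that the levels were equal.

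**Figure D1:**
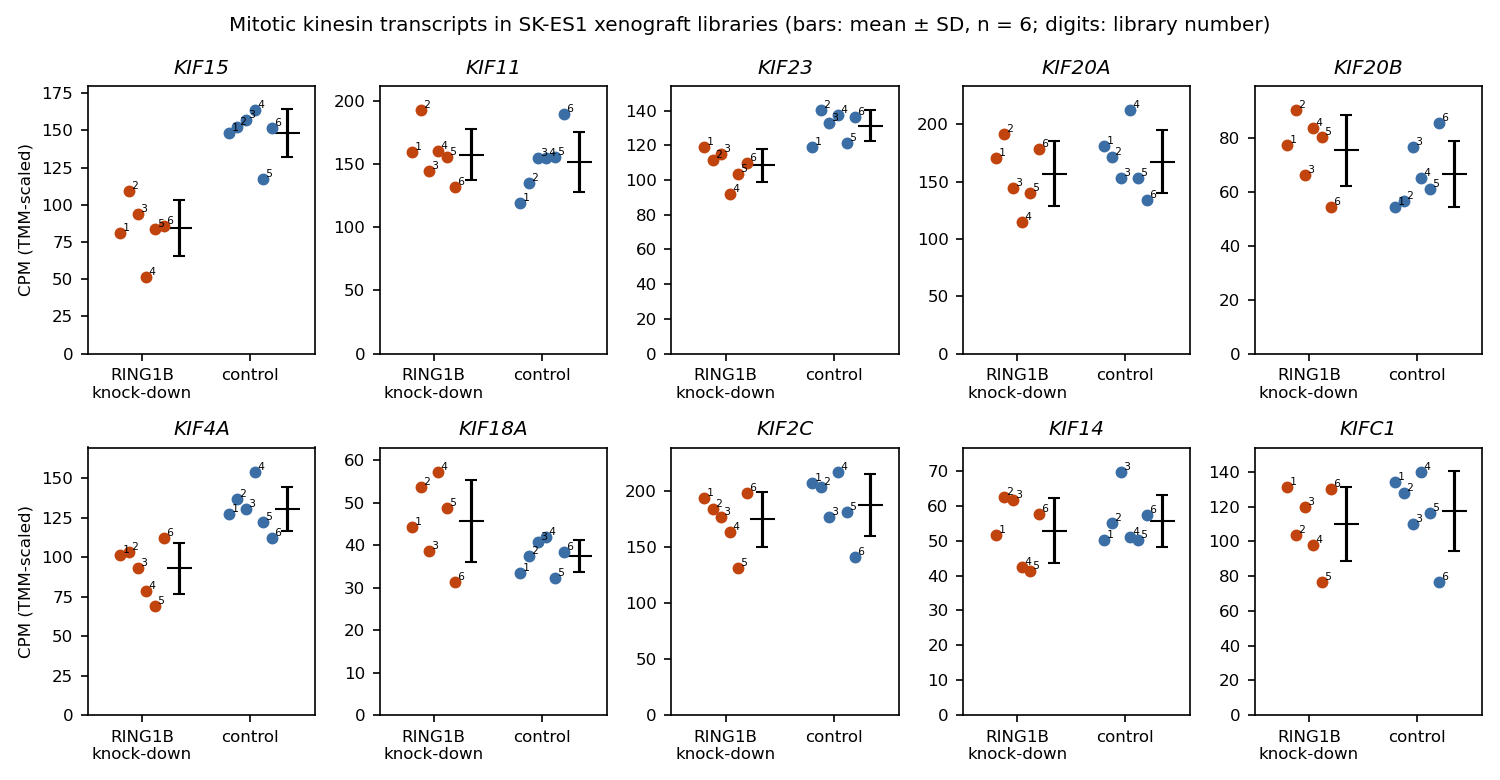
TMM-scaled CPM of each mitotic kinesin in 6 RING1B knock-down libraries (left, orange) and 6 control libraries (right, blue); digits give the library number, horizontal marks the mean and bars the SD. Only in KIF15 and KIF4A do all 6 knock-down points lie below every control point.

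As a set, 1 of 10 members was called lower and none higher. Of all 16519 genes edgeR called 20 lower (0.121%) and 49 in either direction (0.297%). The groups did not overlap, with knock-down lower, in 2 of the 10 and in 95 of all genes (0.575%). The fitted change was below 0 in 7 of 10 members and in 47.6% of all genes, and the median log2 fold change was −0.10 for the members and 0.01 for all genes. These shares rest on the contrast used to choose the family, so nothing is read from them. Of the 10, 3 had an unadjusted p below 0.05 by edgeR, as did 2091 of all genes (12.7%).

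**Figure D2:**
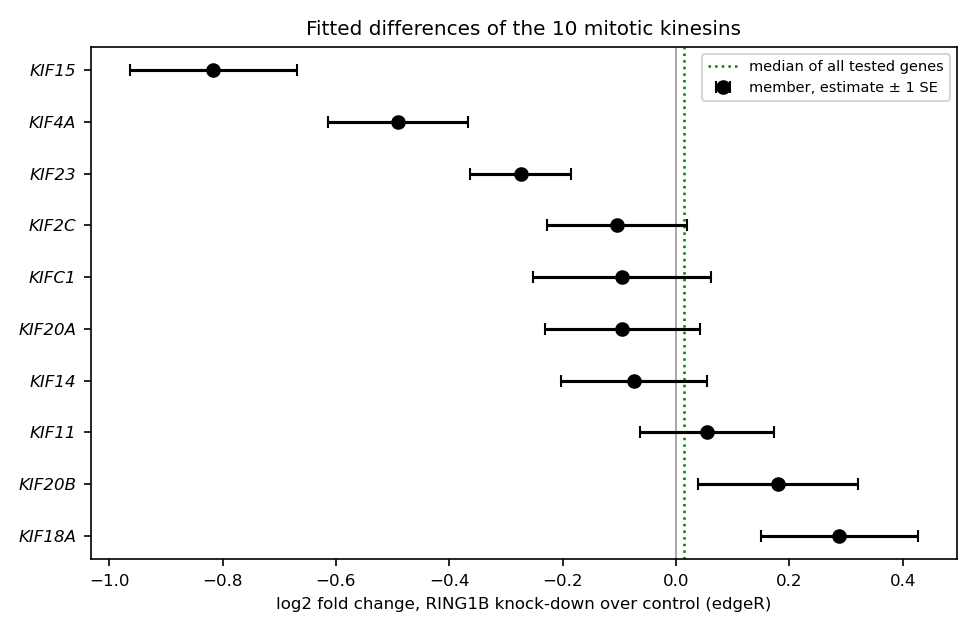
Log2 fold change of each member, RING1B knock-down over control, from edgeR with bars of 1 SE; the dotted line is the median of all tested genes. KIF15 at −0.82 and KIF4A at −0.49 stand to the left, while KIF18A at 0.29 stands furthest right.

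The summed level of the 10 genes was 1058 ± 107 CPM in knock-down and 1194 ± 82.2 CPM in control (SD, n = 6 each). Of the difference of −135.5 CPM, KIF15 made up −64.1 CPM, KIF4A −37.6 CPM and KIF23 −22.7 CPM. Without KIF15 the sum was 974 CPM in knock-down and 1046 CPM in control, with libraries from 846 to 1093 CPM in knock-down and from 970 to 1174 CPM in control. These 9 other members thus overlapped between the groups as a sum. The sum of all 10 overlapped too, at 930 to 1202 CPM in knock-down and 1110 to 1338 CPM in control.

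Measures taken within a library do not depend on how libraries are scaled against each other. KIF15 held 4.71% to 7.89% of the summed TPM (counts per gene length, scaled to the same total in each library) of the 10 members in knock-down libraries, against 9.03% to 12.1% in control libraries. The ratio of KIF15 to KIF11, the motor whose function it partly shares, was 0.496 ± 0.111 in knock-down and 0.919 ± 0.175 in control (ratio of TPM, SD, n = 6 each). It lay between 0.298 and 0.597 in knock-down, against 0.692 to 1.15 in control, without overlap. Both the share and this ratio use the KIF15 counts already described, so they are not a second result. The ratio of KIF4A to KIF11 was 0.643 ± 0.156 in knock-down and 0.947 ± 0.191 in control, and its groups overlapped, with control 6 at 0.636 and knock-down 6 at 0.91.

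Levels between genes are compared per length, in TPM. In knock-down tumours the order ran from KIF2C at 154 ± 33.1, KIF20A at 127 ± 27.9, KIFC1 at 106 ± 29.3 and KIF11 at 102.46 ± 11.02 TPM to KIF4A at 65.9 ± 16.0, KIF23 at 52.8 ± 8.85 and KIF15 at 50.9 ± 12.6 TPM. KIF20B at 34.6 ± 4.40, KIF18A at 30.7 ± 4.83 and KIF14 at 23.3 ± 5.62 TPM were the lowest (SD, n = 6 each). In control tumours KIF2C led at 172 ± 42.7 TPM and KIF14 was lowest at 25.1 ± 4.53 TPM, and KIF15, at 92.4 ± 16.6 TPM, stood between KIF4A at 95.6 ± 20.3 TPM and KIF23 at 65.6 ± 9.58 TPM. Among neighbours in the control order, the ranges over libraries were apart only for KIF23 and KIF20B. Within single control libraries the order also held in 6 of 6 for KIF2C over KIF20A and KIF20A over KIFC1. The same was true of KIF15 over KIF23 and KIF20B over KIF18A. KIFC1 exceeded KIF11, and KIF18A exceeded KIF14, in 5 of 6. KIF11 exceeded KIF4A in 3 of 6 control libraries and KIF4A exceeded KIF15 in 4 of 6, so these 3 are not ordered beyond their spread.

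Apart from the group means, the members did not vary as 1 block. Pearson r between members was computed over the 12 libraries on log2 CPM after the mean of each group had been subtracted. It is given as a description without p, since libraries sharing a title number may not be independent and all values share library depth and scaling. Over 45 pairs the median r was 0.20, with 28 above 0 and 17 below, and it was 0.324 with library size alone in place of TMM. In each group taken alone, 28 of the 45 pairs had the same sign in both. KIF2C and KIFC1 had the highest r, 0.97, and it was 0.945 in knock-down alone and 0.992 in control alone. KIF2C, KIFC1, KIF4A and KIF20A had r from 0.671 to 0.97 among themselves, and KIF11, KIF20B and KIF18A from 0.597 to 0.891. Between these sets all 12 values were negative, from −0.70 for KIF20B with KIFC1 to −0.20 for KIF11 with KIF4A. They were not all negative within each group. KIF18A had r of 0.478 with KIF4A and 0.208 with KIF20A in control alone, and KIF11 had 0.177 with KIF20A in knock-down alone. KIF15, KIF23 and KIF14 had r from 0.609 to 0.724 among themselves, but they were not apart from the first set, since KIF15 had 0.659 with KIF20A and KIF4A had 0.557 with KIF23. In control alone KIF14 had r of only 0.39 with KIF15 and 0.396 with KIF23. The sets were read from these same values.

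**Figure D3:**
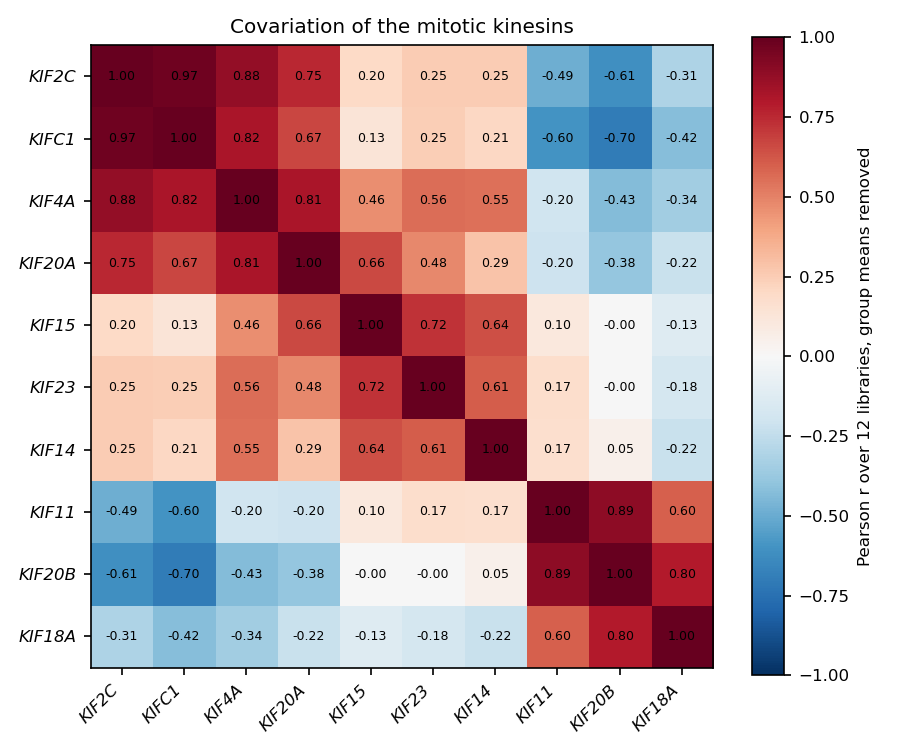
Pearson r between mitotic kinesins over 12 libraries, after removal of each group's mean from log2 CPM; red is positive and blue negative. The block of KIF2C, KIFC1, KIF4A and KIF20A is negative against KIF11, KIF20B and KIF18A.

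Examples of the opposed pattern were control 6, knock-down 4, knock-down 5 and knock-down 6. In control 6 KIFC1 lay 0.59 and KIF2C 0.40 below their group mean on the log2 scale (deviations −0.59 and −0.40), while KIF20B lay 0.38 and KIF11 0.34 above. Knock-down 5 had deviations of −0.50 for KIFC1 and −0.40 for KIF2C, while the other set moved little, with KIF20B at 0.11, KIF18A at 0.13 and KIF11 at −0.01. In knock-down 4 the first set ran from −0.42 for KIF20A to −0.08 for KIF2C. The second ran there from 0.03 for KIF11 to 0.36 for KIF18A. Knock-down 6 showed the reverse, with KIFC1 at 0.27, KIF20B at −0.45 and KIF18A at −0.52. Mitochondrially encoded genes held 10.01% of counts in knock-down 5 and 14.45% in control 6, the highest of each group. They held 8.42% in knock-down 4 and 6.14% in knock-down 6. Mean correlations with the other libraries were low at 0.967 for knock-down 5 and 0.968 for control 6, with only knock-down 4 lower at 0.953. Knock-down 6 did not share this, at 0.979, the highest of its group. The part of these library differences in the kinesin pattern was not tested. Without control 6, knock-down 4 and knock-down 5, r was 0.861 for KIF2C with KIFC1, 0.88 for KIF11 with KIF20B and −0.64 for KIF20B with KIFC1.

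**Figure D4:**
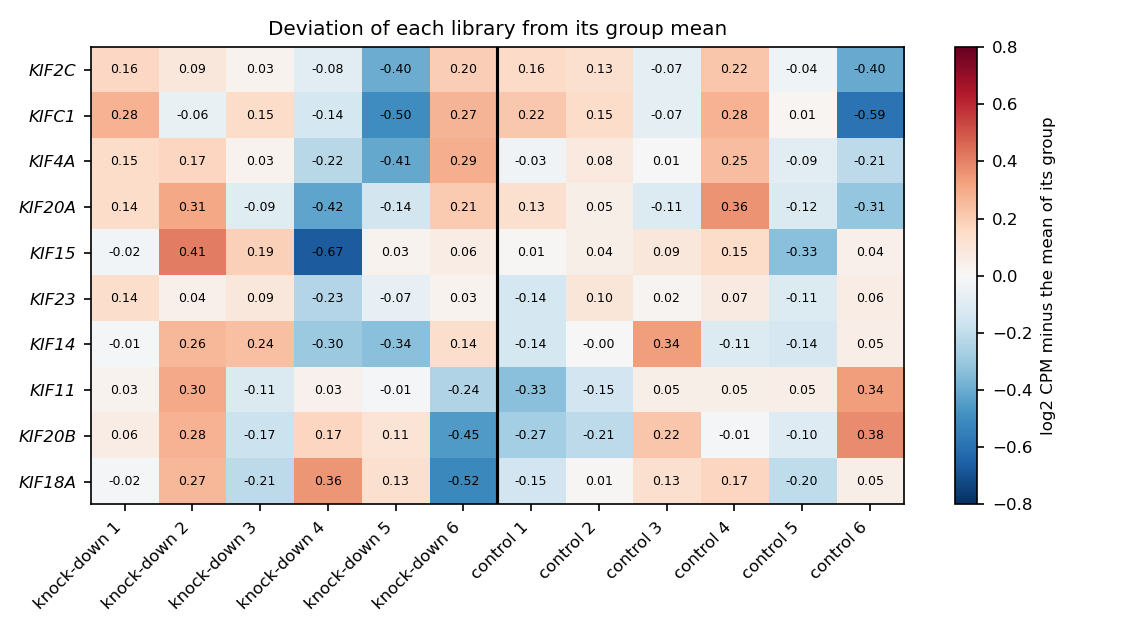
Log2 CPM of each member in each library minus the mean of its group, knock-down libraries left and control libraries right of the black line. Control 6 and knock-down 5 are blue for KIFC1 and KIF2C, and knock-down 4 is lowest for KIF15 at −0.67.

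The genes whose pattern was most like that of the members were found by r with the mean of the 10 standardised members, group means removed, over 12417 other coding genes with at least 1 CPM. TPX2, a spindle assembly factor that activates Aurora A, led at r = 0.906, followed by the checkpoint kinase BUB1 (0.896) and the cleavage furrow protein ANLN (0.871). NCL, the nucleolar protein nucleolin (0.868), the splicing factor WBP11 (0.861) and ART3 (0.857), an ADP-ribosyltransferase family member with a mean of only 1.88 CPM over all libraries, completed the first 6. Of the first 50, 5 were on the list of kinesin partners and spindle proteins and 1 on that of proliferation markers. TPX2 itself was at 384 ± 43.4 CPM in knock-down and 403 ± 43.4 CPM in control (SD, n = 6 each, log2 fold change −0.07). Its r with single members ran from 0.911 for KIF20A to −0.12 for KIF20B, and that with KIF15 was 0.735.

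Proliferation markers give the setting of these values. MKI67, which encodes the antigen Ki-67, was at 253 ± 72.2 CPM in knock-down and 318 ± 40.6 CPM in control (SD, n = 6 each, log2 fold change −0.33, SE 0.167, edgeR adjusted p = 0.431). TOP2A, topoisomerase II alpha, was at 341 ± 59.3 CPM in knock-down and 357 ± 65.6 CPM in control (log2 fold change −0.07). Of 13 proliferation markers 12 had a negative log2 fold change, against 47.6% of all genes, with a median of −0.07. None was called, while 0.297% of all genes were called in either direction. The smallest edgeR adjusted p, 0.322, was that of TYMS, thymidylate synthase, at −0.34. The others named by the rule were CDK1, the mitotic kinase, at 0.28 and MCM2, a subunit of the replicative helicase, at −0.44 (edgeR adjusted p = 0.469 and 0.547). The 9 other kinesins as a sum and the proliferation markers, at 2107 to 2900 CPM in knock-down and 2471 to 3024 CPM in control, both overlapped between the groups.

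Other genes of the pathway were counted by list. Over all genes, 47.6% had a negative log2 fold change, with a median of 0.01, and 0.121% were called lower. Of 29 tested partners and spindle proteins 23 had a negative log2 fold change, with a median of −0.08, and 1 was called lower and none higher. The called gene was MAD2L1, a spindle checkpoint protein, at 50 ± 7.63 CPM in knock-down and 93.3 ± 21.5 CPM in control (SD, n = 6 each, log2 fold change −0.90, SE 0.145, edgeR adjusted p = 0.0152). That call ended without knock-down 1 (edgeR adjusted p = 0.0556) and with counts summed by title number (0.0663), over a range of −0.98 to −0.76 in 24 alternatives. ECT2, the exchange factor that activates RhoA for cytokinesis, was at −0.32, RACGAP1, the partner of KIF23 in centralspindlin, at −0.23, and HMMR, a spindle-associated hyaluronan receptor, at 0.22 (edgeR adjusted p from 0.298 to 0.564). No transcription factor of the cell cycle was called among 17 tested, of which 9 were negative. E2F4 was at −0.30, E2F7 at −0.49, LIN54, the MuvB subunit that contacts the CHR, at 0.21 and RBL2, the pocket protein p130, at −0.22 (edgeR adjusted p from 0.322 to 0.519).

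Kinesins outside the family of 10 had no called member, while only 0.297% of all tested genes were called in either direction. The absence of calls therefore does not set these kinesins apart from other genes. Of 5 tested other mitotic kinesins 4 were negative, with a median of −0.14, and none had an unadjusted p below 0.05. These were KIF18B (−0.29), KIF2A (−0.22), KIF24 (−0.13) and KIF22 (−0.14), with edgeR adjusted p from 0.53 to 0.696, while KIF2B was at 0 in all libraries. Of 23 tested transport and other kinesins 12 were negative, with a median of −0.05, and 3 had an unadjusted p below 0.05, a share near the 12.7% of all genes. KIF21A, a motor that restrains microtubule growth, was at −0.53 (edgeR adjusted p = 0.376), KIF17, a dendritic and ciliary motor, at 0.51 (0.341), and KIF25 and KIF6 at 0.96 and 1.36 at mean levels below 2 CPM (0.394 and 0.422). DESeq2 called 3 of the 10 mitotic kinesins, KIF15, KIF4A and KIF23, and 351 genes in all.

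The members are on chromosomes 1 (KIF2C and KIF14), 3, 5 (KIF20A), 6 (KIFC1), 10 (KIF11 and KIF20B), 11 (KIF18A), 15 (KIF23) and X, and for each of them the exons in the table were those of GENCODE release 29. Their principal transcripts encode from 673 residues for KIFC1 to 1780 for KIF20B. Exons of KIF20A share 132 bases with BRD8 and 68 with CDC23, those of KIF4A 77 with PDZD11 and those of KIF18A 61 with METTL15, each on the opposite strand. KIF23 and KIF2C share 231 and 175 bases with antisense genes of at most 10 and 12 counts, and KIFC1 shares 424 with the pseudogene RPL12P1, at most 7 counts. The strand setting of the counting is not given, so reads in these stretches cannot be assigned. No exon of KIF15, KIF11, KIF20B or KIF14 overlapped that of another gene.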

How the data were processed

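Counts per gene were deposited by the authors as 1 raw table for the 12 libraries. Per the submitters' processing notes, STAR 2.6.0a, featureCounts, limma 3.40.2 and R 3.6.0 were used on hg38. Libraries were made with a stranded mRNA kit, per the labels' protocols. Sources used here do not give the strand setting, the handling of multiply aligned reads or any removal of host reads. The gene lengths used for TPM are per the file headers.

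Here edgeR 4.0.16 in R 4.3.3 was used. Genes passing filterByExpr, which held at least 99.72% of counts, were scaled by TMM (factors 0.921 to 1.04) and tested with a robust quasi-likelihood fit of group alone. A call is a Benjamini-Hochberg adjusted p below 0.05 over all genes. SEs come from the F statistic. Log2 CPM used a prior count of 2. CPM are TMM-scaled counts. The lowest chi-square per degree of freedom between libraries of a group was 12.05, for control 1 and control 2, which share a title number. Differences were thus above counting noise, which does not tell separate tumours from repeat preparations of 1 tumour. The other pairs sharing a title number had 21.8 (control 4 and 5), 83.6 (knock-down 3 and 4) and 125.1 (knock-down 5 and 6). The last was the highest of the knock-down pairs. With the title number as a random effect, the consensus correlation of libraries sharing a number was −0.125.

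Members and lists were chosen with earlier results of these data known. Named genes are the members, RNF2, MKI67, TOP2A, TPX2 and the 6 most similar genes. Added to these are up to 4 genes per list with the smallest adjusted p. Of endothelial, leukocyte and fibroblast markers only EGFL7, DCN and COL3A1 are named under this rule, the others being given as sums. CD99, CD3E, PECAM1, VWF, KIF4B, KIF2B, BRD8, CDC23, PDZD11, METTL15 and RPL12P1 are outside the rule. Of the spindle list 1 entry, KIFBP, did not match under that name. Protein sequences were not used here. Alternatives tried were library size alone, factors by RLE or upper quartile, other filters, DESeq2 1.42.0, limma-voom 3.58.1, the title number or letter, a threshold of 0.01, and leaving out libraries.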

Additional observations from a re-analysis of the deposited data

Results flagged for a closer look

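In 20 groups of 6 values, 10 genes in each of 2 groups, 2 held a library far from its group, as judged by the gap to the nearest other library over the whole range; chance gives about 1 in 20. KIF15 in control 5 was at 117 CPM, against 148 CPM in the next control, and its gap made up 0.672 of the range. It was the lowest control and still above all knock-down libraries, the highest of which was at 109 CPM. Control 5 had the highest control sums of fibroblast and pericyte (1584 CPM), leukocyte (26.6 CPM) and endothelial markers (111 CPM). Knock-down 4, the lowest library for KIF15, had the highest knock-down sums of these lists (1606, 34.1 and 102 CPM). Control 6, at 1296 CPM of fibroblast and pericyte markers, had KIF15 at 151 CPM. The part of host RNA in these KIF15 values was not tested. KIF14 in control 3 was at 69.7 CPM, against 57.4 CPM in the next control, with a gap of 0.631 of the range.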

How the results depend on the processing

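The number of genes called was 49 and, of the 10 members, 1. DESeq2 called 351 genes and 3 members, limma-voom with quality weights 500 and 2, a random effect of the title number 91 and 1, sums by title number 7 and 0, the title letter as covariate 28 and 1, an adjusted p below 0.01 gave 3 and 0, and omitting control 6, knock-down 4 and knock-down 5 together gave 108 and 1. Leaving out 1 library gave 16 to 79 genes and 0 to 1 members. Members below 0 numbered 7, with 7 to 8 on leaving out 1 library and 6 with quality weights or without the 3 libraries. The median r between members was 0.20, and 0.324 with library size alone. KIF11 turned to −0.0149 without control 1, the lowest of its leave-one-out values, which reached 0.129, and −0.0113 without knock-down 2. KIF14 turned to 0.0072 with quality weights and 0.0755 without the 3 libraries. No other member changed sign in 24 alternatives. KIF15 stayed between −0.92 and −0.68. The same alternatives for RNF2 and MAD2L1 were chosen after seeing the data, and RNF2 kept its call in all 24. No paired analysis was possible because no title number occurs in both groups.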
